A study of Gallus gallus with 6 samples.

Results

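The miR-221 and miR-222 family was followed in liver small RNA of Lushi green-shell laying hens, a Chinese domestic breed. Its members were chosen by name, as every listed mature miRNA called miR-221, miR-222, miR-222a or miR-222b with either arm, and 5 of the 565 listed miRNAs met this rule. They come from 3 hairpin precursors. MiR-221 and miR-222b are each listed with a 5p and a 3p arm, the products of the 2 sides of the hairpin, and miR-222a with a single product. The family was put forward with the difference between the ages already known from these libraries, in which the read count of miR-221-5p had stood out as lower at the later age. The age differences of its members are therefore given as a description with no p value, and the calls of a fit over all tested miRNAs appear only beside the share called among all of them.

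Livers were taken from 3 hens at 20 weeks of age (L20, juvenile, before laying) and from 3 hens at 30 weeks (L30, egg-laying, at peak lay). The study names 3 libraries per age and mentions no pooling, and 1 hen per library is assumed from this. All 6 hens were untreated and shared their housing and feeding. The L20 libraries held between 7135289 and 14822854 reads counted on known miRNAs, and the L30 libraries between 3864984 and 8804077. As a share of the clean reads (those left after the authors' quality filters) this was 49.1% to 58.0% for the L20 hens and 18.2% to 45.0% for the L30 hens, and levels per clean read are accordingly lower in L30 for most miRNAs. Whole tissue was used, so that fewer cells of a type and less of a miRNA per cell cannot be told apart. As a check of the tissue label, both arms of the hepatocyte miRNA miR-122 were present in every library, with a summed level from 12896 to 71220 reads per 1000000 clean reads.

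MiRNAs are short RNAs that guide Argonaute proteins to messenger RNAs, mainly through the bases near their 5′ end that are called the seed. In mammals, the main arms of miR-221 and miR-222 share a seed and arise from a common primary transcript. There they repress the cell cycle inhibitors CDKN1B and CDKN1C and the receptor tyrosine kinase KIT. They are well known in mammalian endothelium and vascular smooth muscle, and in liver regeneration, fibrosis and hepatocellular carcinoma. Each of the 3 precursors matched a chicken gene in RefSeq (assembly GRCg7b), where MIR221 and MIR222, the gene matched by miR-222a, are direct neighbours. MIR222B lies apart from them, between the coagulation factor gene F8 and FUNDC2, and so outside the cluster. The counting tolerated mismatches and shifted ends, so that reads of closely similar members could have been counted for each other.

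MiR-222a and miR-221-3p, the abundant products of the cluster, were the leading members, and none of the remaining 3 products exceeded 43.7 TPM in any library. TPM here means reads per 1000000 clean reads, and values are given for libraries 1, 2 and 3 of each age in turn. MiR-222a had 830, 326 and 532 TPM in the L20 libraries and 380, 101 and 326 TPM in the L30 libraries. It ranked between the 36th and the 69th most counted of the 565 miRNAs, depending on the library. Its L20 and L30 libraries overlapped, since L20-2 lay under L30-1, and L30-2 was the lowest of all. The spread between hens of the same age was wide, with a ratio of highest to lowest of 2.54 in L20 and 3.75 in L30.

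MiR-221-3p, the major arm of its precursor, had 400, 374 and 284 TPM in the L20 libraries and 149, 50.6 and 77.1 TPM in the L30 libraries. The ages did not overlap, and L30-2 again had the lowest level. MiR-221-5p, the minor arm, had 43.7, 26.5 and 36.0 TPM in L20 and 9.66, 2.30 and 6.68 TPM in L30. Here too the highest L30 value stayed under the lowest L20 value. The lowest value of miR-221-5p, in L30-2, rested on 31 reads. Of the 236 miRNAs that passed the filter on low counts, 46.2% had all L30 values under all L20 values.

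The arms of miR-222b, the precursor outside the cluster, did not separate the ages. MiR-222b-3p had 29.8, 17.1 and 19.1 TPM in L20 and 39.0, 16.7 and 6.35 TPM in L30. The highest and the lowest of its 6 values were both in L30 libraries, which differed by a ratio of 6.14. MiR-222b-5p was near the limit of these libraries, at 1.03, 0.942 and 0.825 TPM in L20 and 1.02, 0.446 and 0.705 TPM in L30. Its values rested on between 6 and 25 reads, and 3 counts, taken as the limit of detection, equal 0.113 to 0.223 TPM depending on the library. The reads were amplified without molecular identifiers, so this limit and the intervals given for single libraries cover counting error only.

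**Figure D1:**
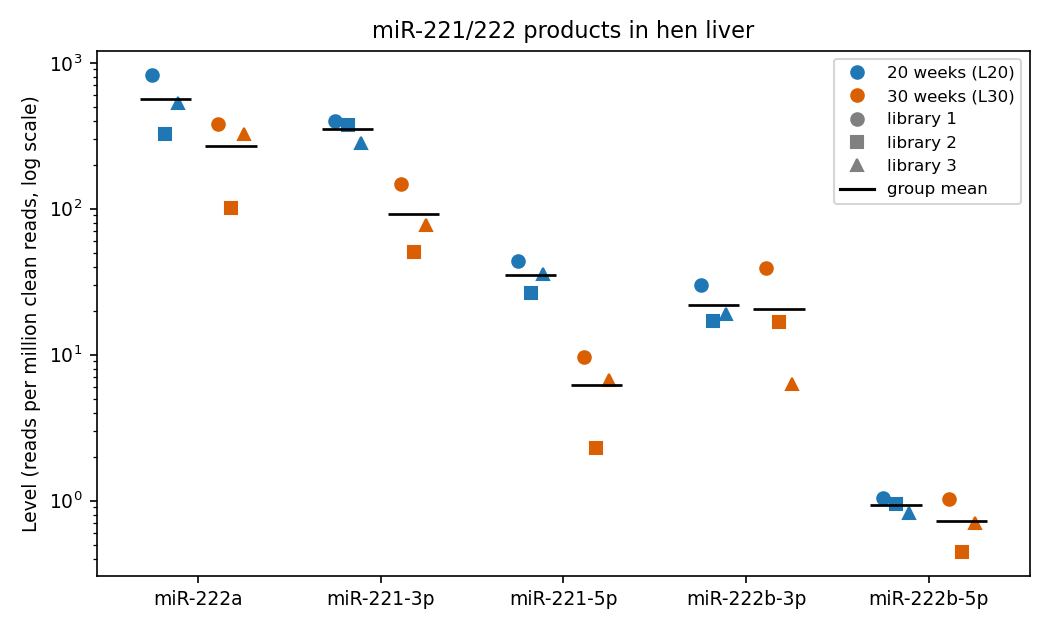
Level of each of the 5 products in each library, in TPM (reads per 1000000 clean reads) on a log axis. Blue points are L20 hens and orange points L30 hens, the symbol gives the library number, and black lines are group means of 3 libraries. MiR-221-3p and miR-221-5p have all L30 points under all L20 points, whereas the points of miR-222a, miR-222b-3p and miR-222b-5p overlap between the ages. Of the 236 tested miRNAs, 46.2% had every L30 level under every L20 level.

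All members together took 0.179% ± 0.0458 of the counted miRNA reads in L20 and 0.137% ± 0.0892 in L30 (SD, n = 3 each), and these shares overlapped between the ages. L30-3, the library with the smallest share of clean reads on known miRNAs, had the highest family share of counted reads, 0.229%, and L30-2 had the lowest, 0.0517%. Most of this spread came from miR-222a, which had 1795 CPM (reads per 1000000 reads counted on the listed miRNAs) in L30-3 and 306 CPM in L30-2.

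The order of the members was compared within libraries, where no scaling between libraries is needed. Each log2 ratio was set against 0 with an exact two-sided sign-flip permutation test over the 6 libraries. The smallest possible p is 0.0312, and it is reached whenever all 6 libraries have the same sign. With Benjamini-Hochberg adjustment over the 5 ratios compared, the adjusted p depends on how many of them reach this p. The 5 ratios share members, so their tests are not independent. That of the miR-221 arms also uses the miR-221-5p counts, whose age difference was already known. This test counts in the adjustment, so the other adjusted p values depend on it too. All 5 ratios also hold any difference in how well each RNA was ligated and amplified, which was not measured.

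The 3p arm was the major arm of both precursors in all 6 libraries. The log2 ratio of miR-221-3p to miR-221-5p was 3.65 ± 0.53 (SD, n = 6), a geometric mean of 12.5 reads of the 3p arm to 1 of the 5p arm (exact permutation p = 0.0312, adjusted p = 0.0391). The low miR-221-5p counts of L30 were known beforehand and raise this ratio, so nothing is read from its p. By library there were 9.15, 14.1 and 7.90 reads to 1 in L20 and 15.4, 22.0 and 11.5 in L30. For miR-222b-3p to miR-222b-5p it was 4.48 ± 0.77 (SD, n = 6), a geometric mean ratio of 22.4 (exact permutation p = 0.0312, adjusted p = 0.0391). The 5p arm took 9.85% (95% exact Clopper-Pearson interval 9.25 to 10.5), 6.61% (6.14 to 7.10) and 11.2% (10.3 to 12.2) of the miR-221 reads in the L20 libraries. In the L30 libraries it took 6.10% (5.28 to 6.997), 4.35% (2.98 to 6.12) and 7.97% (6.75 to 9.32). Its mean share was 9.23% ± 2.37 in L20 and 6.14% ± 1.81 in L30 (SD, n = 3 each), and the ages overlapped because L20-2 lay under L30-3. Hens of the same number are different animals. They are set side by side here only because their libraries deviated together weakly over the tested miRNAs (correlations of 0.119, 0.171 and 0.188). Libraries of different numbers correlated at −0.134 to −0.017. Deviations from the group means cancel within an age, so some pairing has to correlate positively. In each of the 3 pairs of the same number the 5p arm took the smaller share in L30. The log2 ratio of the 3p to the 5p arm was higher there by 0.75, 0.62 and 0.54. This pattern depends on the pairing, since L20-2 set against L30-3 goes the other way, and it is a description without a test. For miR-222b, the 5p arm took from 3.35% to 5.23% of the reads in L20. In L30 it took 2.56%, 2.61% and 10%, the last with an interval of 5.71 to 15.96 from 15 of 150 reads in L30-3.

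Across precursors, miR-222a and miR-221-3p both exceeded miR-222b-3p in all 6 libraries. The log2 ratio of miR-222a to miR-222b-3p was 4.24 ± 1.12 (SD, n = 6, exact permutation p = 0.0312, adjusted p = 0.0391). That of miR-221-3p to miR-222b-3p was 3.20 ± 1.15 (SD, n = 6, exact permutation p = 0.0312, adjusted p = 0.0391). The cluster neighbours themselves were closer. MiR-222a was above miR-221-3p in 5 of 6 libraries, with a log2 ratio of 1.03 ± 0.74 (SD, n = 6), and their order did not pass the test (exact permutation p = 0.0625, adjusted p = 0.0625). The exception was L20-2, where 8667 reads of miR-222a stood against 9934 of miR-221-3p. With 1 library of the opposite sign, 0.0625 is the smallest exact permutation p, so this order could not pass.

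The same ratios, and that of miR-221-5p to miR-222b-3p, which was not among the 5 compared, show library by library where the members went apart between the ages. There were 13.4, 21.9 and 14.9 reads of miR-221-3p to 1 of miR-222b-3p in L20, and 3.82, 3.04 and 12.1 in L30. All L30 ratios were thus under all L20 ratios, as was the case for 28.1% of the 235 tested miRNAs that were set against miR-222b-3p in the same way. L30-3 was close to the lowest L20 library, and the other L30 libraries were well under it. MiR-221-5p outnumbered miR-222b-3p in all L20 libraries, with ratios of 1.47, 1.55 and 1.88. In L30-1 and L30-2 the order was the opposite, with ratios of 0.248 and 0.138, and in L30-3 the products were near equal at 1.05. This ratio uses the miR-221-5p counts, whose age difference was already known, and the share of 28.1% stands beside it too. MiR-222a to miR-222b-3p gave 27.8, 19.1 and 27.8 in L20 and 9.77, 6.09 and 51.4 in L30, so that the highest and the lowest ratios were in L30 libraries. Within the cluster, the ratio of miR-222a to miR-221-3p was 2.07, 0.872 and 1.87 in L20 and 2.56, 2.00 and 4.23 in L30, with an overlap between L20-1 and L30-2. Between hens of the same number this log2 ratio was higher in L30 by 0.30, 1.20 and 1.18. That of miR-221-3p to miR-222b-3p differed (L30 minus L20) by −1.81, −2.85 and −0.29. For miR-221-5p to miR-222b-3p, which uses the counts known beforehand, the differences were −2.56, −3.47 and −0.84. The ratios given next did not keep 1 direction over the pairs. The ratio of miR-222a to miR-222b-3p differed by −1.51, −1.65 and 0.88. For miR-222b-3p to miR-222b-5p the differences were 0.40, 0.96 and −1.35. These differences by pair are a description without a test.

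**Figure D2:**
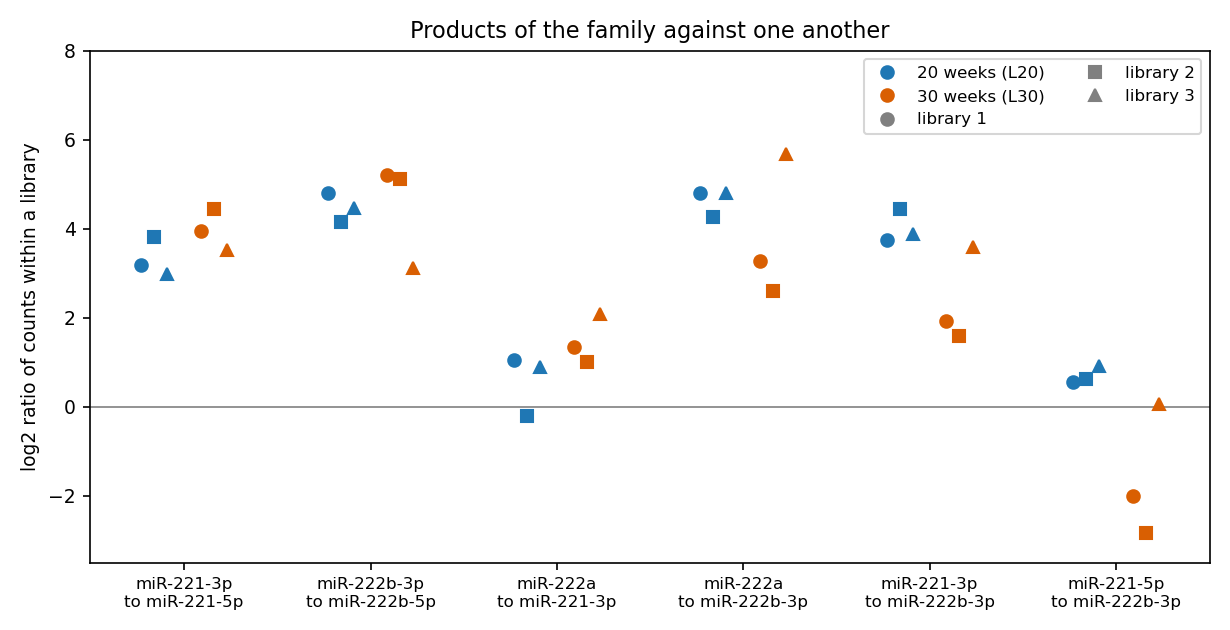
Log2 ratio of the read counts of pairs of family products within each library, where 0 is equal counts. Blue points are L20 hens, orange points L30 hens, and the symbol gives the library number. The ratios of miR-221-3p and miR-221-5p to miR-222b-3p have every L30 point under every L20 point, and the other pairs overlap between the ages. Of the 235 tested miRNAs set against miR-222b-3p, 28.1% had every L30 ratio under every L20 ratio.

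Between the ages, both miR-221 arms had lower levels in L30 without overlap, as had 46.2% of the 236 tested miRNAs. MiR-222a had a lower mean with overlapping libraries, and miR-222b-3p had similar means with a wide spread. Mean levels went from 35.4 ± 8.65 to 6.21 ± 3.70 TPM for miR-221-5p (SD, n = 3 each), which is 5.70-fold lower in L30, or −2.50 on the log2 scale (standard error 0.62). MiR-221-3p went from 353 ± 60.8 to 92.2 ± 50.8 TPM, 3.83-fold lower, or −1.94 on the log2 scale (standard error 0.56). MiR-222a went from 563 ± 253 to 269 ± 148 TPM, 2.09-fold lower, or −1.06 on the log2 scale (standard error 0.51). For miR-222b-3p the means were 22.0 ± 6.84 and 20.7 ± 16.7 TPM, and the log2 fold change was −0.09 (standard error 0.58). For miR-222b-5p they were 0.934 ± 0.105 and 0.725 ± 0.289 TPM, with −0.35 on the log2 scale (standard error 0.67).

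In edgeR's quasi-likelihood fit over the 236 miRNAs that passed the filter on low counts, all 5 members among them, a miRNA was called at a Benjamini-Hochberg adjusted p of at most 0.05. This called 2 of the 5 members, miR-221-3p and miR-221-5p, as lower in L30, beside 24.6% of all tested miRNAs called lower. The contrast was known when the family was put forward, so nothing is read from this count. The same 2 members were those whose ages did not overlap in TPM, as was the case, in the lower direction, for 46.2% of all tested miRNAs. With the replicate number as a block, miR-222a was called as well, at a log2 fold change of −1.17 (standard error 0.42), so that 3 members were called as lower beside 37.3% of the tested miRNAs. The calls rested on single libraries in part. Neither miR-221 arm was called without L30-2, the library with the lowest level of every cluster product. There edgeR called 0 members, and 3 of 250 miRNAs in all. Before adjustment 2 members passed 0.05, but the share of all tested miRNAs doing so is not given, so nothing is read from them. MiR-221-3p was also not called without L20-1 or without L20-2, where 1 member was called in each fit. Of all tested miRNAs, 9.80% and 5.60% were called lower in these fits.

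The age differences of all members depended on the scaling. With clean reads, 80.1% of the tested miRNAs were below 0 on the log2 scale, and the median of the 236 was −0.86. Relative to this median, miR-221-5p stood at −1.64, miR-221-3p at −1.07, miR-222a at −0.20, miR-222b-5p at 0.51 and miR-222b-3p at 0.77. With the summed miRNA counts as library size the median of all tested miRNAs was −0.10, and relative to it miR-221-5p stood at −1.49, miR-221-3p at −0.99, miR-222a at 0.03, miR-222b-5p at 0.62 and miR-222b-3p at 0.61. Under that scaling the log2 fold changes themselves were −1.59 (standard error 0.52) for miR-221-5p, −1.10 (standard error 0.35) for miR-221-3p, −0.07 (standard error 0.63) for miR-222a and 0.51 (standard error 0.37) for miR-222b-3p. Both miR-222b arms thus turned from negative to positive. MiR-221-3p was then the only member called as lower, beside 16.1% of the tested miRNAs. MiR-221-5p lay only just above the threshold, so this call does not set the arms apart. Over all tested miRNAs the calls were 58 lower with the clean reads, 38 lower and 29 higher with the summed counts, and 14 lower and 63 higher under upper quartile factors. In CPM, both miR-221 arms still had all L30 values under all L20 values, as did 27.5% of the tested miRNAs. MiR-221-3p had 690, 670 and 579 CPM in L20 and 331, 153 and 424 CPM in L30. The mean of miR-222a was 1033 ± 426 CPM in L20 and 982 ± 754 CPM in L30 (SD, n = 3 each).

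**Figure D3:**
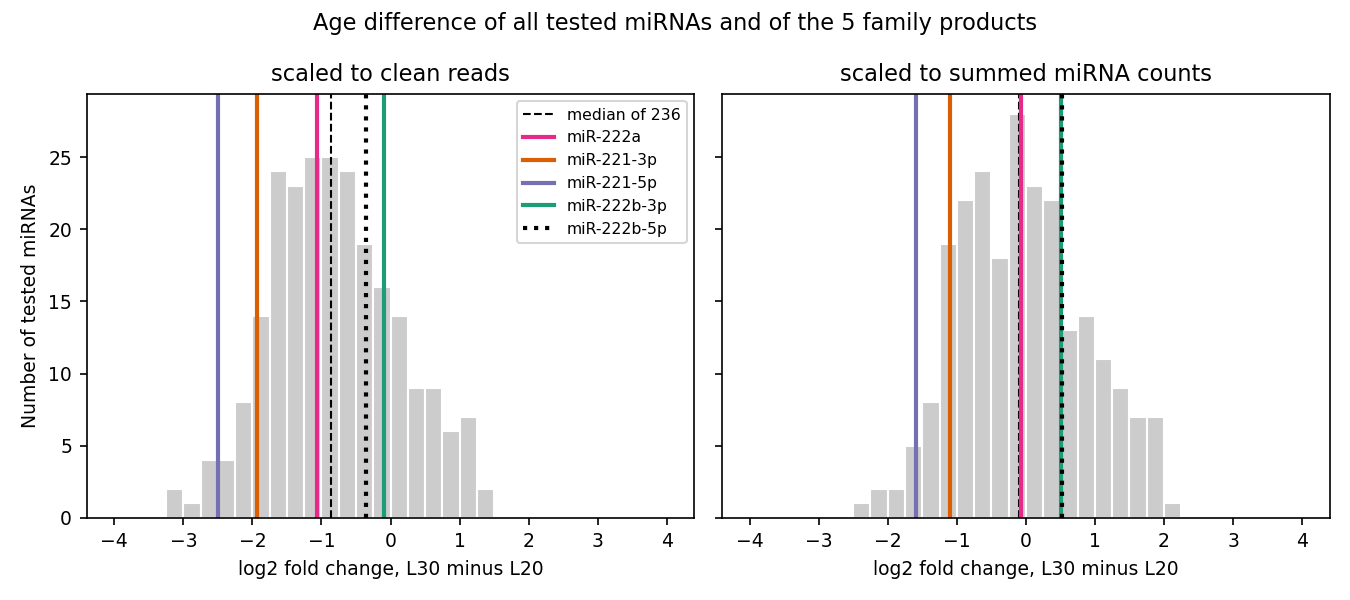
Number of the 236 tested miRNAs by log2 fold change (L30 minus L20, in bins), with the 5 family products as coloured lines and the median as a dashed line. Scaled to clean reads (left panel) the median is −0.86, and scaled to summed miRNA counts (right panel) it is −0.10. In both panels miR-221-5p and miR-221-3p lie left of the median, miR-222a close to it, and the miR-222b arms right of it.

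**Figure D4:**
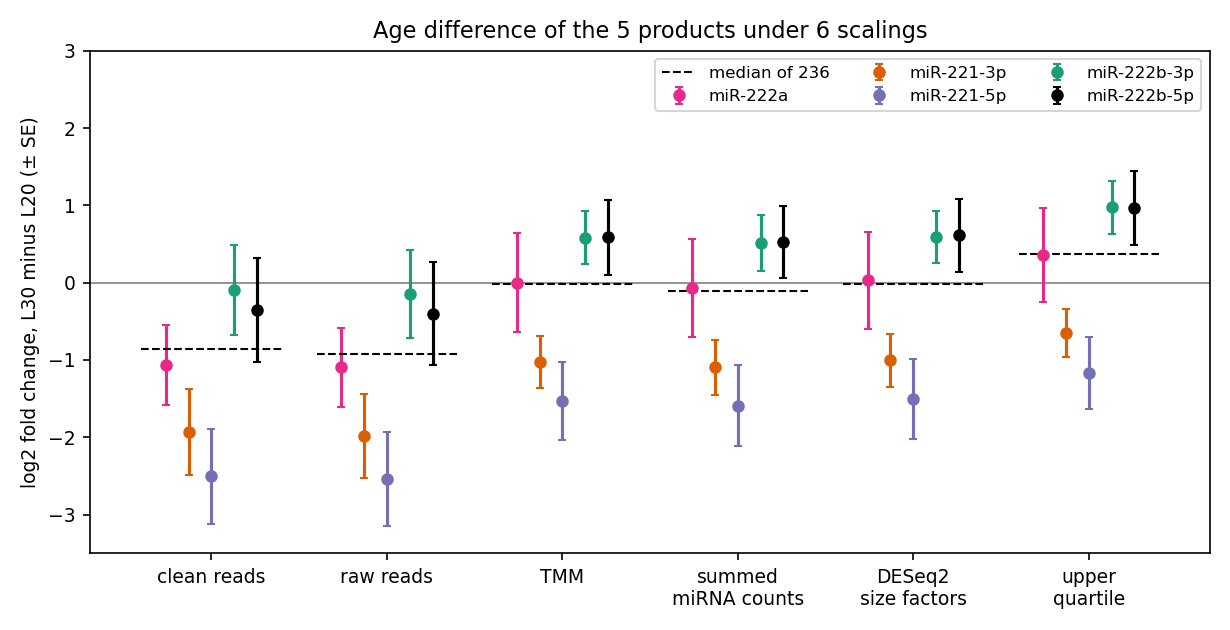
Log2 fold change (L30 minus L20) of the 5 products under 6 scalings, with bars of 1 standard error of the edgeR fit and a dashed line at the median of the 236 tested miRNAs. MiR-221-5p and miR-221-3p are below 0 under each scaling shown. MiR-222a is near 0 under TMM factors, summed counts and DESeq2 size factors and above it, at 0.36, under upper quartile factors, and the miR-222b arms are below 0 only under clean reads and raw reads.

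Of the marker lists of other liver cell types, the endothelial, leukocyte and erythroid lists had most of their members called as lower in L30, and the mesenchymal and bile duct lists did not. These counts stand beside the 24.6% of all tested miRNAs that were called lower. Both endothelial markers, miR-126-3p and miR-126-5p, were called as lower in L30, with a summed level between 28732 and 42751 TPM in L20 and between 6458 and 14792 TPM in L30. So were 3 of 4 leukocyte markers (4627 to 6736 TPM in L20 and 943 to 3664 TPM in L30) and 2 of 3 erythroid markers (1597 to 3182 TPM in L20 and 288 to 1197 TPM in L30). The sums of these 3 lists had all L30 libraries under all L20 libraries in TPM and in CPM, as had 46.2% and 27.5% of the single tested miRNAs. Of the mesenchymal and stellate cell list, 3 of 5 miRNAs were found by name and used (miR-199-3p, miR-199-5p and miR-214). None of these was called in edgeR, and their sum overlapped between the ages. This sum was between 2604 and 5506 TPM in L20 and between 1121 and 3214 TPM in L30. The bile duct epithelial list had 1 of 3 called as lower and also overlapped, at 701 to 852 TPM in L20 and 251 to 721 TPM in L30. The hepatocyte list had 1 of 2 called as lower, at 50943 to 71220 TPM in L20 and 12896 to 38273 TPM in L30, and its libraries overlapped in CPM. No listed marker was at 0 in a library. The part of these cell types in the levels of the family was not tested.

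For each member, the 5 miRNAs outside the family whose log2(TPM + 1) followed it most closely over the 6 libraries were listed, and members of different precursors had some of them in common. For miR-221-3p these were miR-99a-3p, miR-19b-3p, miR-200a-3p, miR-146c-5p and miR-455-3p, with Pearson correlations from 0.976 to 0.996 (n = 6). For miR-221-5p they were miR-181b-1-3p, miR-3539, miR-99a-3p, miR-19a-3p and miR-19b-3p, from 0.954 to 0.982. MiR-222a was followed most closely by miR-3539, miR-125b-3p, miR-7472-5p, miR-181a-5p and miR-200a-3p, from 0.830 to 0.915, which is a looser match. For miR-222b-3p the closest were miR-128-3p, miR-1454, miR-429-3p, let-7a-5p and let-7j-5p, from 0.959 to 0.988. For the sparsely counted miR-222b-5p they were miR-7472-5p, miR-125b-3p, let-7c-5p, miR-6544-5p and miR-1559-3p, from 0.898 to 0.979. The 6 points share their library, its depth and its share of miRNA reads, and they fall into 2 ages, so these correlations are a description. With clean reads, the miRNAs closest to the miR-221 arms had log2 fold changes from −2.19 to −1.09. Those closest to miR-222b-3p had values from −0.32 to 0.02. How much of the correlations the age difference made up was not tested. When the levels were scaled to the summed miRNA counts, 4 of the 5 were again among the closest for each miR-221 arm, 3 for miR-222a, 2 for miR-222b-5p and 0 for miR-222b-3p.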

How the data were processed

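Small RNA of hen liver was sequenced in 6 libraries, each taken as 1 hen. As the study's methods state, the authors filtered the reads with the Fastx toolkit (adaptors, short reads, low quality) and counted them on miRBase entries in CLC Genomics Workbench, tolerating up to 2 mismatches and shifted ends. The authors deposited the read count of each of 565 mature miRNAs without normalization. In every library, the deposited TPM values of all 565 miRNAs equal the counts per 1000000 of a single read total, within 0.0001. They were used only to recover this total, which was taken as the raw reads. TPM in the text was computed anew, with the clean reads that the study gives as the base. Libraries were grouped by the labels, and 0 columns of sample values had no sample.

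The test was edgeR's quasi-likelihood test (edgeR 4.0.16, R 4.3.3, robust), with library sizes set to the clean reads, after filterByExpr (minimum count 10, minimum total 15). Standard errors are the log2 fold change divided by the square root of the F statistic. Ratios used a pseudocount of 0.5. Alternatives were TMM, upper quartile and DESeq2 size factors, summed counts or raw reads as library size, other filters, Fisher's exact test on pooled counts, limma 3.58.1 on log2(TPM + 1), DESeq2 1.42.0, a replicate block, and each library left out in turn. Same-numbered libraries come from different hens, but their deviations from the group means correlated at 0.119, 0.171 and 0.188 across the tested miRNAs, so the block is given where it changes a call. The pairing rests on this check of the data alone. Libraries of different numbers correlated at −0.134 to −0.017. Such deviations cancel within an age, so some pairing has to correlate positively and the check is weak. The edgeR fit reported, DESeq2 and limma were tested on simulated counts in which rises and falls were equally frequent, unlike in these data. Other scalings and the block were not tested in this way. The permutation test was checked on invented values. Python 3.11.15 with matplotlib 3.10.9 drew the figures.

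The members, the marker lists and the rules for named miRNAs (all members, and the 5 most alike miRNAs for each) were chosen with earlier results of these data known. The mature sequences, the miRNAs predicted by the study and the target predictions were not analysed here. Of the mesenchymal list, miR-143-3p and miR-145-5p were not used here.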

Additional observations from a re-analysis of the deposited data

How the results depend on the processing

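The number of members called between the ages was 2, and it was also 2, again both miR-221 arms, with raw reads as library size, with no filter, with at least 10 counts in every library, in DESeq2 and in limma. The share of all tested miRNAs called as lower was 24.6% in the fit reported, and 31.8%, 8.50%, 33.0%, 31.8% and 33.1% under these alternatives in turn. The number of members was 3 with the replicate block (37.3% of all) and in Fisher's exact test on pooled counts (73.7%), each time with miR-222a added, and the block changed no other call of a member. Fisher's test pools the hens and treats amplified reads as independent, so it ignores the spread between hens. The number was 1, miR-221-3p, under TMM factors (12.7% of all) and with summed counts (16.1%), with miR-221-5p just above the threshold. It was 0 in edgeR under upper quartile (5.93%) and DESeq2 size factors (13.1%). Under each of these factors 2 members passed 0.05 before adjustment. The shares in brackets are at the adjusted threshold and cannot be set beside that count, so nothing is read from it. With each library left out in turn the number of members was from 0 to 2, beside 1.2% to 41.4% of all. The cause of these shifts was not tested. MiR-221-3p and miR-221-5p were below 0 under all 16 alternatives with a fold change, from −2.47 to −0.66 and from −2.97 to −1.17. MiR-222a was below 0 under 14 of 16, miR-222b-3p under 9 of 16 and miR-222b-5p under 11 of 15. Of all tested miRNAs, 35.2% (upper quartile factors) to 86.3% (without L30-1) were below 0 in these alternatives. The alternatives reuse the same libraries and the contrast known beforehand, so nothing is read from these counts of signs. The filter of at least 10 counts in every library removed miR-222b-5p, so it has 1 alternative fewer. Over all tested miRNAs, leaving out a library moved the number called as lower from 58 to between 3 and 103. Without L30-1 the log2 fold change of miR-222b-3p was −0.94, and without L30-3 it was 0.34. The ratios between members kept their sign under all alternatives, and pseudocounts of 1 and 0.1 changed no call. Medians over libraries were 3.67 for miR-221-3p to miR-221-5p, 4.65 for miR-222b-3p to miR-222b-5p, 4.53 for miR-222a to miR-222b-3p and 3.67 for miR-221-3p to miR-222b-3p, each with an adjusted exact permutation p of 0.125. For a median over 6 libraries 0.125 is the smallest possible exact permutation p, so this alternative could not pass the threshold. With 5 libraries the smallest exact permutation p of a mean is 0.0625, so leaving a library out could not pass it either. The log2 ratios then ranged from 3.49 to 3.78, from 4.34 to 4.75, from 3.95 to 4.56 and from 2.95 to 3.52, in the same order. The 6 to 25 reads behind miR-222b-5p limit what can be said of that arm.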
